A study of Mus musculus with 12 samples.

Results

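Claudins, cadherins and connexins, with occludin and the ZO scaffold proteins, are the genes of the junctions by which epithelial and endothelial cells seal, hold and signal to their neighbours. They were taken by gene symbol (claudin, cadherin and connexin symbols followed by a digit, and Ocln, Tjp1 and Tjp3), without regard to their values, from array rows that name exactly 1 gene. The rule found 70 of 19937 genes: 28 claudins, 23 cadherins, 16 connexins, and Ocln, Tjp1 and Tjp3.

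The study measured total RNA from C57Bl6 mouse liver cells on 12 Affymetrix arrays, 3 libraries to a group. In 1 group, YFP-positive liver cells were sorted by FACS from uninduced animals and are called hepatocytes in the labels. The other groups were organoids cultured for 2 weeks: wild-type organoids, and organoids from livers in which Yap, the transcriptional coactivator restrained by the Hippo pathway, had been on for 3 weeks. Of these last, 1 group was then cultured without doxycycline, which shuts Yap off (here Yap-off organoids), and 1 with doxycycline, which keeps Yap on (here Yap-on organoids). The promoter and the cells that drive the Yap transgene, the animals' age and sex, and whether replicates came from separate animals are not given in the sources used here. Every p-value thus rests on variation from library to library, which may be only technical.

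Tight junctions close the space between epithelial cells. Claudins form their strands and set which ions pass, occludin sits among them, and the ZO proteins (Tjp1, Tjp3) anchor them to actin. Classical cadherins bind their like on the next cell and are tied to actin through catenins, and connexins assemble into gap junction channels that let small molecules pass between cells. In the liver, hepatocytes seal the bile canaliculi with claudins, carry E- and N-cadherin together and are coupled by the connexins Gjb1 and Gjb2, bile ducts have claudins of simple epithelia, and endothelium has its own cadherin, claudin and connexins.

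The deposited intensities were used as log2 values, and all levels below are log2 intensities. Array medians over all genes lay between 4.14 and 4.34, and 39 of the 70 genes stayed below the median of every array, with a highest value of 4.25. Cdh16, Cldn16 and Cldn19 of the kidney, named for that tissue and not by their values, were among them. Of the others, 9 were above the median on all 12 arrays and 22 on 1 to 11 arrays. A value above 8 was reached by 17 genes on at least 1 array. Yap1 itself stood at 7.21, 6.88 and 7.35 in the Yap-off and 7.28, 7.40 and 7.45 in the Yap-on libraries, overlapping ranges.

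Libraries did not follow their labels in the hepatocyte and wild-type organoid groups, where junction genes are therefore given library by library, each named as labelled. The 7 endothelial markers were all above the array median in the libraries with the labels hepatocyte 2 and wild-type organoid 1 and 3, and summed to 1087, 7444 and 4062 (linear intensity). In the rest of these 2 groups the sum lay between 59.0 and 81.7, and at most 1 of the 7 was above the median. The sum of the 4 biliary markers measured took the opposite split. It was 75.0, 81.7 and 89.8 in the former libraries and 2401, 2041 and 2330 in those labelled hepatocyte 1 and 3 and wild-type organoid 2. Single markers split less cleanly, with 2, 1 and 2 of the 4 above the median in the former and 3, 3 and 4 in the latter. Epcam was below the median in hepatocyte 1 and 3, at 3.76 and 4.13. The sum of 6 macrophage markers followed the endothelial one, with 14784, 9054 and 14206 against 209 to 422. In the Yap-off and Yap-on organoids the endothelial sum stayed between 68.5 and 87.7. The hepatocyte sum of 6 markers was 19315 to 24283 in the Yap-off and 2500 to 2746 in the Yap-on organoids, where 2 of the 6 were above the median. The biliary sum was 598 to 935 and 7145 to 8200. As RNA was taken in bulk, from sorted cells or from organoids, fewer cells of a type and less RNA per cell cannot be told apart.

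**Figure D1:**
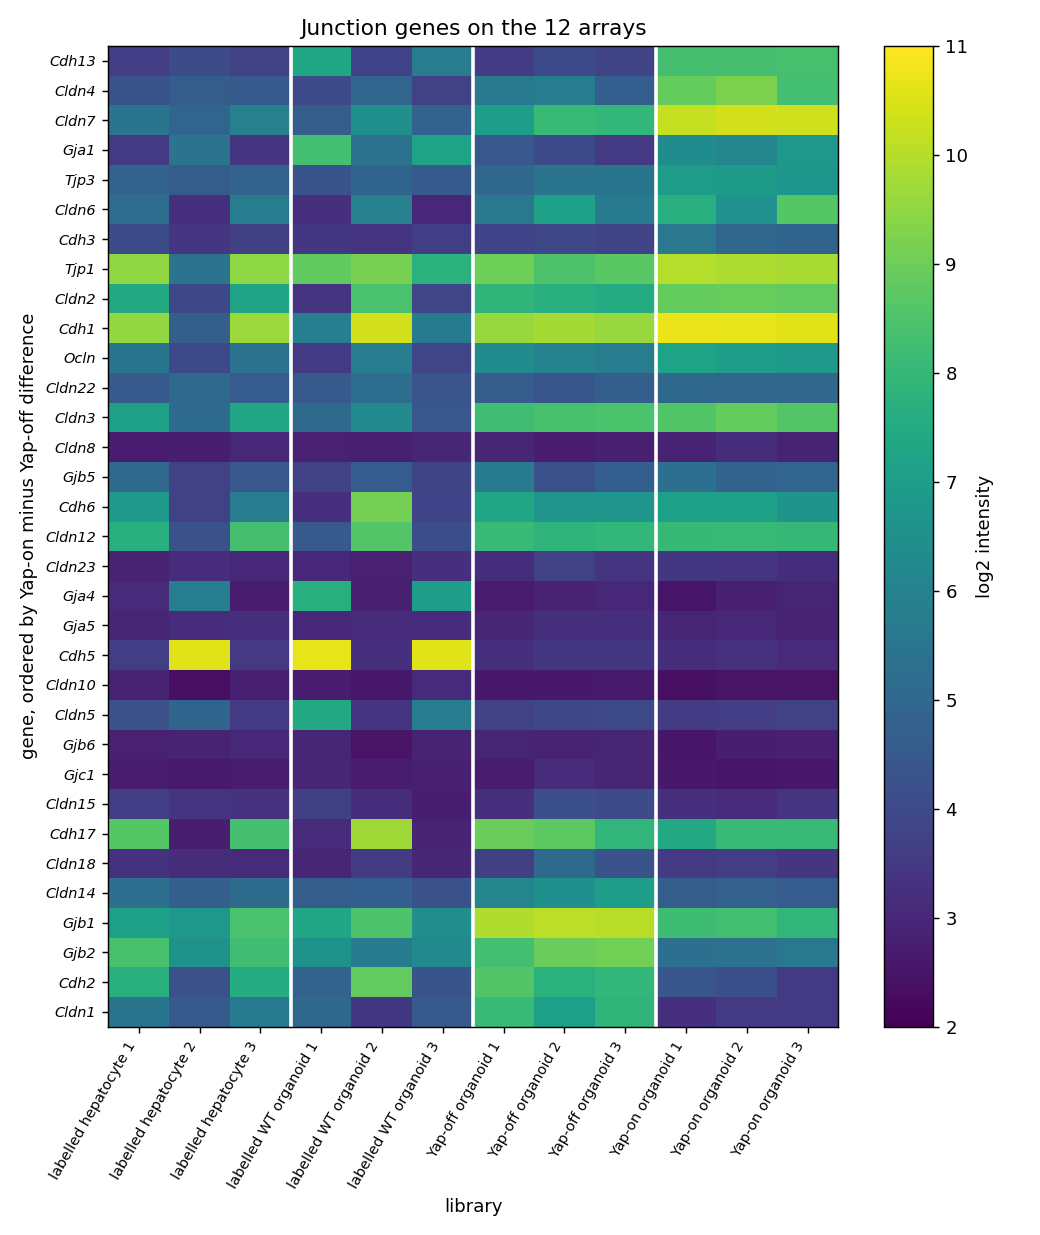
Log2 intensity (colour) of 33 junction genes (rows, ordered by the Yap-on minus Yap-off difference) in each of the 12 libraries (columns, grouped by label). Cdh5 stands above 10 in 3 libraries labelled hepatocyte or wild-type organoid and below 4 elsewhere, and the Yap-on columns are bright at the top rows and dark at the bottom rows.

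Yap-on and Yap-off organoids differed in which junction genes they carried. This comparison asks how organoids differ with Yap kept on or shut off in culture, after 3 weeks of Yap in the liver in both. With Yap on, Cldn4, Cldn7, Cldn2, Ocln, Tjp1, Tjp3 and the cadherins Cdh1, Cdh3 and Cdh13 rose, as did the connexin Gja1, while Cldn1, Cldn14, Cdh2 and the hepatocyte connexins Gjb1 and Gjb2 fell. Measured changes ran from 18.8-fold lower for Cldn1 to 23.6-fold higher for Cdh13, each against a group below the array medians, where background limits the size of a fold. limma, fitted on these 6 arrays with Benjamini-Hochberg adjustment over all genes, called 16 of the 70 genes, against 31.2% of all genes: 11 higher (15.7%), against 19.1%, and 5 lower (7.14%), against 12%. The members' shares lay below these backgrounds, and the median difference was -0.17, beside -0.08 over all genes. Both depended on processing. Without the 30% of genes with the lowest mean, 16 of 36 members were called, a share no longer below the 41.8% of all genes. Under renewed quantile normalization the members' median was -0.01, beside 0.002 over all genes. In the values as deposited, the groups did not overlap for 12 genes on the higher side and 27 on the lower. The shares over all genes were 24.6% and 28.9%. On all 12 arrays, whose spread includes the libraries that do not group by label, 9 genes were called (11.5% of all genes), and the calls for Cdh1, Cdh2, Cldn2, Cldn22, Gja1, Ocln and Tjp1 ended. Without the library labelled Yap-off 1 the count was 26, 15 of them lower, and 39.4% of all genes were called.

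The promoters of Cldn4 and Cldn7, which rose, and of Cldn1 and Gjb2, which fell, are shown because these genes moved furthest among the claudins and connexins and in opposite directions. Each line gives the 250 bases before the annotated start on the gene's own strand (RefSeq, GRCm38.p6), with matches to GGAATG (the TEAD motif), CAGGTG (an E-box) or AACNNGTT (a grainyhead motif) on either strand in capitals.
Cldn4, chr5:134946935-134947184, minus strand: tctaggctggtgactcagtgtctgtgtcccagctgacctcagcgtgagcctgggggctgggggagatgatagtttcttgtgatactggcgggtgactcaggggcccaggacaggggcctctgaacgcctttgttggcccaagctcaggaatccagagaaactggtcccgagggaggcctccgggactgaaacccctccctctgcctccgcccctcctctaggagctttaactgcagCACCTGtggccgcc
Cldn7, chr11:69964529-69964778, plus strand: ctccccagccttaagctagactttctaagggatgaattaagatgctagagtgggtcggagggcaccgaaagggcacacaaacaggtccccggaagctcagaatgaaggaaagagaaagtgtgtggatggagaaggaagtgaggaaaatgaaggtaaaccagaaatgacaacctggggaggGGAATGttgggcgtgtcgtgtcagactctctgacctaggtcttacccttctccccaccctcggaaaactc
Cldn1, chr16:26371840-26372089, minus strand: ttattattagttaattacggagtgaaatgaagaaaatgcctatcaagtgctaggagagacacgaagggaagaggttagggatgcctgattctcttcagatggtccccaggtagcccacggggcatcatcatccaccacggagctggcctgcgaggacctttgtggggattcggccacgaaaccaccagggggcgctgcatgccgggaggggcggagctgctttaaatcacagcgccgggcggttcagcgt
Gjb2, chr14:57104703-57104952, minus strand: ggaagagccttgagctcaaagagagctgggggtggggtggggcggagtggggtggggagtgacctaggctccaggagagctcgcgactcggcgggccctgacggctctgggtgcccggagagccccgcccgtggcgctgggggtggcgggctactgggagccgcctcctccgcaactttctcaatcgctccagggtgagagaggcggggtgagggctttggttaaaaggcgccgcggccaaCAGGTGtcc
The Cldn4 window holds an E-box whose match begins 14 bases before the start, on the other strand, and the Gjb2 window one 9 bases before it. The Cldn7 window holds GGAATG 70 bases before the start, and the Cldn1 window has none of the 3 motifs. A second annotated start of Cldn7 has its own window, with an E-box 97 and another 57 bases before it. Of 66 such windows of 50 junction genes in the table, 8 (12.1%) held GGAATG, beside 12.6% of all 32851 windows. For CAGGTG the shares were 19.7% and 17.2%, and for AACNNGTT 4.55% and 3.64%, so these letters were about as common before junction genes as before others.

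The genes by which hepatocytes seal and couple were divided. Of 10 measured members of a list of hepatocyte junction genes, 4 rose and 5 fell with Yap on, beside 19.1% higher and 12% lower over all genes. The median was -0.91, beside -0.08 over all genes. No member lay near that median, which falls between Cldn14 at -1.86 and Cldn12 at 0.04. Cdh1, among those that rose, is also in the list of ductal genes below. Cldn1, a barrier claudin of hepatocytes and skin, stood at 8.09, 7.09 and 7.88 with Yap off and 3.22, 3.60 and 3.53 with Yap on. Hepatocyte-labelled libraries had 5.50, 4.55 and 5.72, and wild-type organoids 5.05, 3.45 and 4.50. It was thus higher in every Yap-off library than in any of the other 9. Its difference was -4.24 (SE 0.26, adjusted p = 5.1e-05).

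Cldn14, a claudin of the inner ear, kidney and liver, was likewise highest in the Yap-off libraries. It read 6.09, 6.51 and 7.03 in the Yap-off libraries, 4.66, 4.77 and 4.62 in the Yap-on libraries and 4.22 to 5.28 in the other 6, so that the Yap-off libraries stood apart. It fell by 1.86 (SE 0.23, adjusted p = 0.0012).

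The connexins Gjb1 and Gjb2, which couple hepatocytes and can share a channel, both fell. Gjb1 read 9.91, 10.09 and 10.03 with Yap off and 8.22, 8.29 and 7.92 with Yap on, a difference of -1.87 (SE 0.13, adjusted p = 8.1e-05). The Yap-on values lay within the range of 6.40 to 8.47 seen in the hepatocyte-labelled and wild-type libraries, and the Yap-off values lay above it. Gjb2 read 8.33, 8.96 and 9.08 with Yap off and 5.28, 5.38 and 5.64 with Yap on, a difference of -3.35 (SE 0.21, adjusted p = 6.0e-05). Here the Yap-on libraries were the lowest of all 12: the hepatocyte-labelled libraries read 8.37, 6.64 and 8.23, and wild-type organoids 6.64, 5.71 and 6.28. Gjb1 thus fell from its highest level on the arrays, and Gjb2 fell to its lowest.

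**Figure D2:**
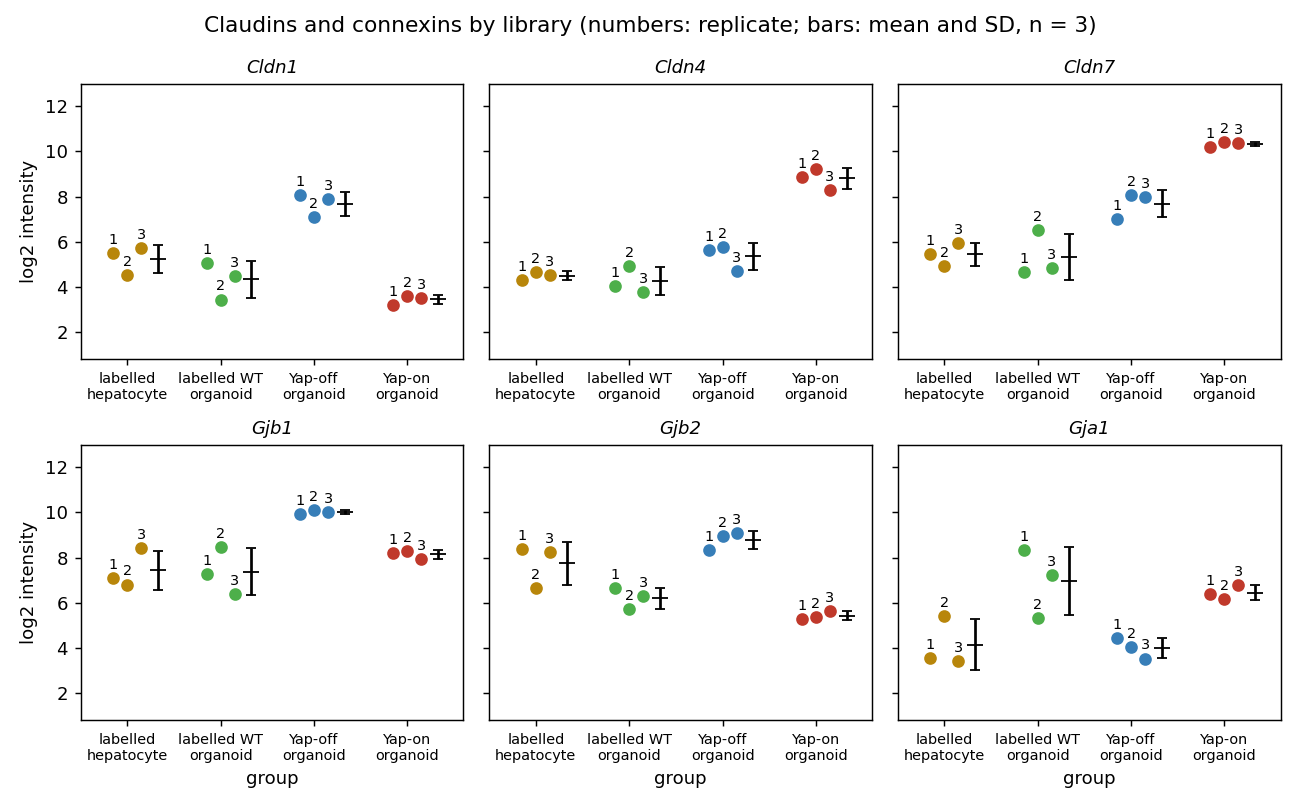
Log2 intensity (vertical axis) of 3 claudins and 3 connexins in each library by group (horizontal axis; numbers mark the replicate, black bars mean and SD of 3). Cldn4 and Cldn7 are highest in the Yap-on libraries, Cldn1 and Gjb1 in the Yap-off libraries, and Gja1 in 2 libraries labelled wild-type organoid.

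Among cadherins, Cdh2 fell and Cdh1 rose. Cdh2, N-cadherin, which hepatocytes share with neural and mesenchymal cells, read 8.55, 7.75 and 7.97 in the Yap-off and 4.42, 4.21 and 3.52 in the Yap-on libraries (difference -4.04, SE 0.29, adjusted p = 0.000105). Near the Yap-off level lay hepatocyte 1 and 3 and wild-type organoid 2, at 7.73, 7.58 and 8.82. Hepatocyte 2 and wild-type organoid 1 and 3, with 4.25, 4.86 and 4.35, were near the Yap-on level. Cdh1, E-cadherin, the cadherin of epithelia, was high throughout the Yap series, with 9.62, 9.80 and 9.62 in the Yap-off and 10.75, 10.68 and 10.59 in the Yap-on libraries. The rise was 0.99 (SE 0.10, adjusted p = 0.00056). Hepatocyte 1 and 3 and wild-type organoid 2 had 9.55, 9.64 and 10.38 and the remaining 3 had 4.73, 5.85 and 5.76. The Yap-off libraries, hepatocyte 1 and 3 and wild-type organoid 2 therefore carried the transcripts of both cadherins, and the Yap-on libraries that of Cdh1 with Cdh2 near the array median.

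Cdh17, the liver-intestine cadherin, and Cdh6, a cadherin of kidney and fetal epithelium, were also expressed in organoids. Cdh17 read 8.95, 8.73 and 7.91 in the Yap-off and 7.42, 8.09 and 8.08 in the Yap-on libraries, and its difference of -0.67 did not pass (95% interval -1.40 to 0.06, adjusted p = 0.14 by limma). Cdh6 read 7.30, 6.69 and 6.69 against 7.07, 7.14 and 6.66 (0.06, interval -0.43 to 0.56, adjusted p = 0.83 by limma). Each was highest in the library labelled wild-type organoid 2, at 9.73 and 9.12, and each lay between 2.76 and 3.81 in the libraries with endothelial markers.

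Cdh13, T-cadherin, a cadherin held by a lipid anchor that binds adiponectin, had the largest rise. It stood at 3.55, 4.01 and 3.84 with Yap off, below those arrays' medians, and at 8.34, 8.34 and 8.39 with Yap on. The difference was 4.56 (SE 0.13, adjusted p = 1.2e-06), and its size is limited by background on the lower side. Wild-type organoid 1 and 3 also had it, at 7.30 and 5.80, while that labelled hepatocyte 2, which shared their endothelial markers, had 4.08. Cdh3, P-cadherin, known from basal and placental epithelium, rose from 3.82, 3.90 and 3.84 to 5.58, 4.96 and 4.90 (difference 1.30, SE 0.19, adjusted p = 0.0025). No other library passed 4.11. A list of 15 neural and mesenchymal cadherins also held the epithelial Cdh3. In it 1 rose (Cdh3) and 1 fell (Cdh2), beside 19.1% higher and 12% lower over all genes. The median was -0.13, beside -0.08 over all genes.

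**Figure D3:**
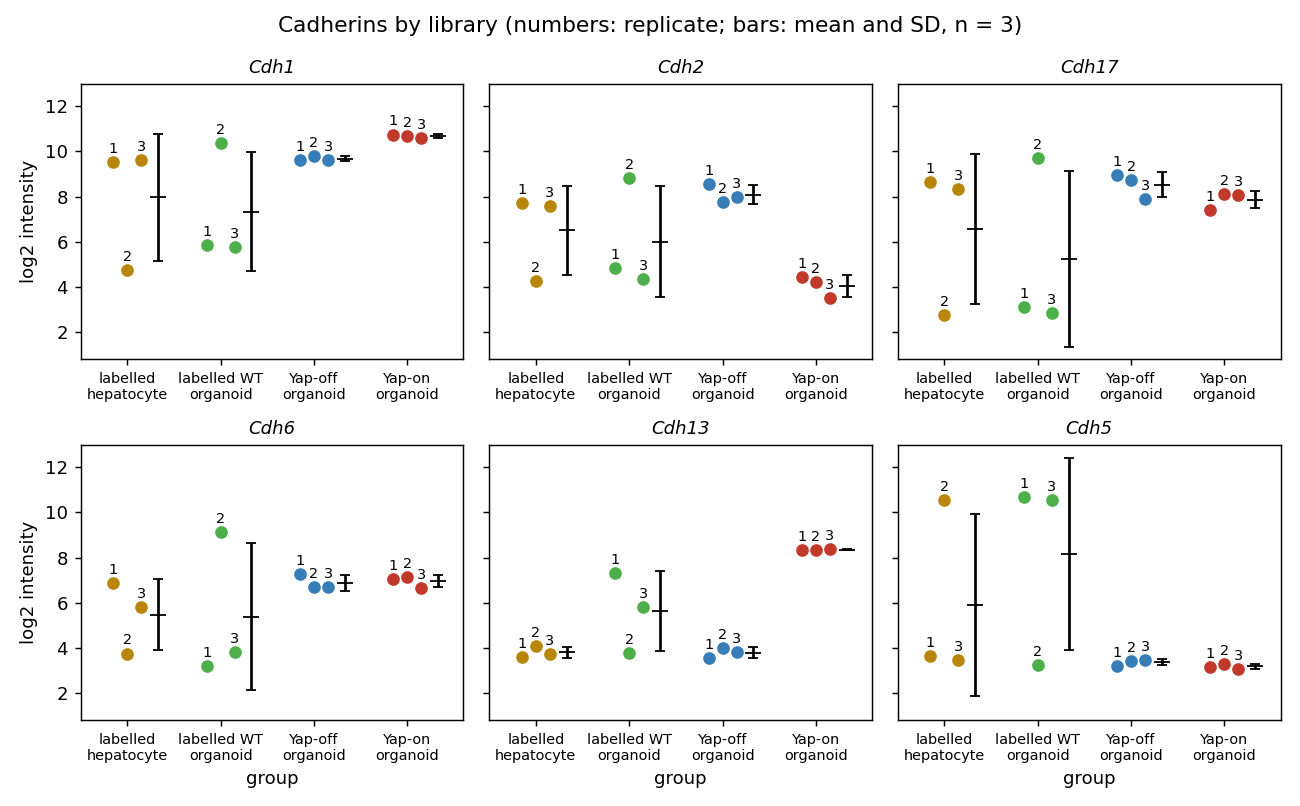
Log2 intensity (vertical axis) of 6 cadherins in each library by group (horizontal axis; numbers mark the replicate, black bars mean and SD of 3). Cdh1, Cdh2, Cdh17 and Cdh6 are low and Cdh5 high in the libraries named hepatocyte 2 and wild-type organoid 1 and 3, and Cdh13 is near 8.3 in the Yap-on libraries.

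Junction genes of ductal and digestive epithelium rose in part. Of 14 measured members of that list, 4 rose with Yap on (Cldn4, Cldn7, Cdh1 and Tjp3) and 10 were not called (median 0.15), beside 19.1% higher over all genes. Cldn4, a barrier claudin of ducts and a receptor for clostridial enterotoxin, read 5.63, 5.79 and 4.69 in the Yap-off and 8.88, 9.23 and 8.30 in the Yap-on libraries (difference 3.43, SE 0.34, adjusted p = 0.00051). The other 6 libraries had 3.77 to 4.95. Cldn7, which marks simple and ductal epithelium, read 7.0, 8.09 and 7.97 in the Yap-off and 10.21, 10.40 and 10.36 in the Yap-on libraries (difference 2.64, SE 0.28, adjusted p = 0.00065), against 4.67 to 6.51 in the other 6. Cldn7 was therefore ordered in steps, with the Yap-off libraries above both groups without Yap, and the Yap-on libraries above all. For Cldn4 the step from the 6 to the Yap-off libraries was not clean, since Yap-off 3 lay below the library labelled wild-type organoid 2.

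Cldn3, a barrier claudin of liver and gut, was similarly high in both Yap groups. It read 8.25, 8.38 and 8.46 against 8.57, 8.89 and 8.60, and the difference of 0.33 did not pass (interval 0.03 to 0.62, adjusted p = 0.084 by limma), although the groups did not overlap. Cldn6, a claudin of embryonic epithelium, read 5.61, 7.14 and 5.68 against 7.69, 6.56 and 8.61 and varied widely within groups (difference 1.48, interval 0.06 to 2.90, adjusted p = 0.10 by limma). It was called when Yap-on 2 was left out (adjusted p = 0.049 by limma) and when Yap-off 2 was (0.046). Cldn18, the claudin of stomach and lung, reached 3.72, 5.12 and 4.30 in the Yap-off libraries, above the other 9, where the highest was 3.63. Its difference of -0.85 was not called (adjusted p = 0.089), but it was without Yap-off 1 (0.012). Without the same library Cldn15, a cation pore of the intestine, was called as well (-0.89, adjusted p = 0.0022 by limma, against -0.59 and 0.11 with it). Cdh17 was called only without Yap-off 3, at -0.98 (adjusted p = 0.031 by limma). Cldn8, Cldn10, Cldn23 and Gjb6 stayed below the median of every array, and the skin connexin Gjb5 lay between 3.73 and 5.74 (difference 0.13, interval -0.74 to 1.00).

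The common parts of the tight junction rose together. Tjp1, the scaffold ZO-1, read 9.0, 8.47 and 8.68 in the Yap-off and 10.01, 9.89 and 9.82 in the Yap-on libraries (1.19, SE 0.15, adjusted p = 0.0014 by limma). Tjp3, ZO-3, which is confined to epithelia, read 4.99, 5.46 and 5.51 against 6.98, 6.91 and 6.73 (1.56, SE 0.16, adjusted p = 0.00060), and 4.32 to 4.92 in the other 6 libraries. Ocln, occludin, read 6.35, 5.99 and 5.83 against 7.21, 7.02 and 6.85 (0.97, SE 0.16, adjusted p = 0.0051). In the libraries with endothelial markers Tjp1, which also serves endothelial junctions, read 5.43, 8.80 and 7.73.

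Cldn2, the claudin that opens a pore for cations and water, rose from 7.90, 7.65 and 7.52 to 8.88, 8.89 and 8.85 (1.19, SE 0.12, adjusted p = 0.00051). Cldn12, an atypical claudin, did not pass, with 8.09, 7.87 and 7.97 against 8.02, 8.05 and 7.99 (difference 0.04, interval -0.19 to 0.27). In the libraries named hepatocyte 2 and wild-type organoid 1 and 3 both were low, between 3.39 and 4.50. In those labelled hepatocyte 1 and 3 and wild-type organoid 2 they read 7.25 to 8.59. Cldn22, a small claudin gene, rose by 0.40 (SE 0.11, adjusted p = 0.034), a call lost without any 1 of the Yap-on libraries (adjusted p = 0.088 to 0.12 by limma), without Yap-off 2 (0.066), under renewed quantile normalization (0.11), with the replicate number as a block (0.063) and with an intensity trend and robust eBayes (0.089).

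**Figure D4:**
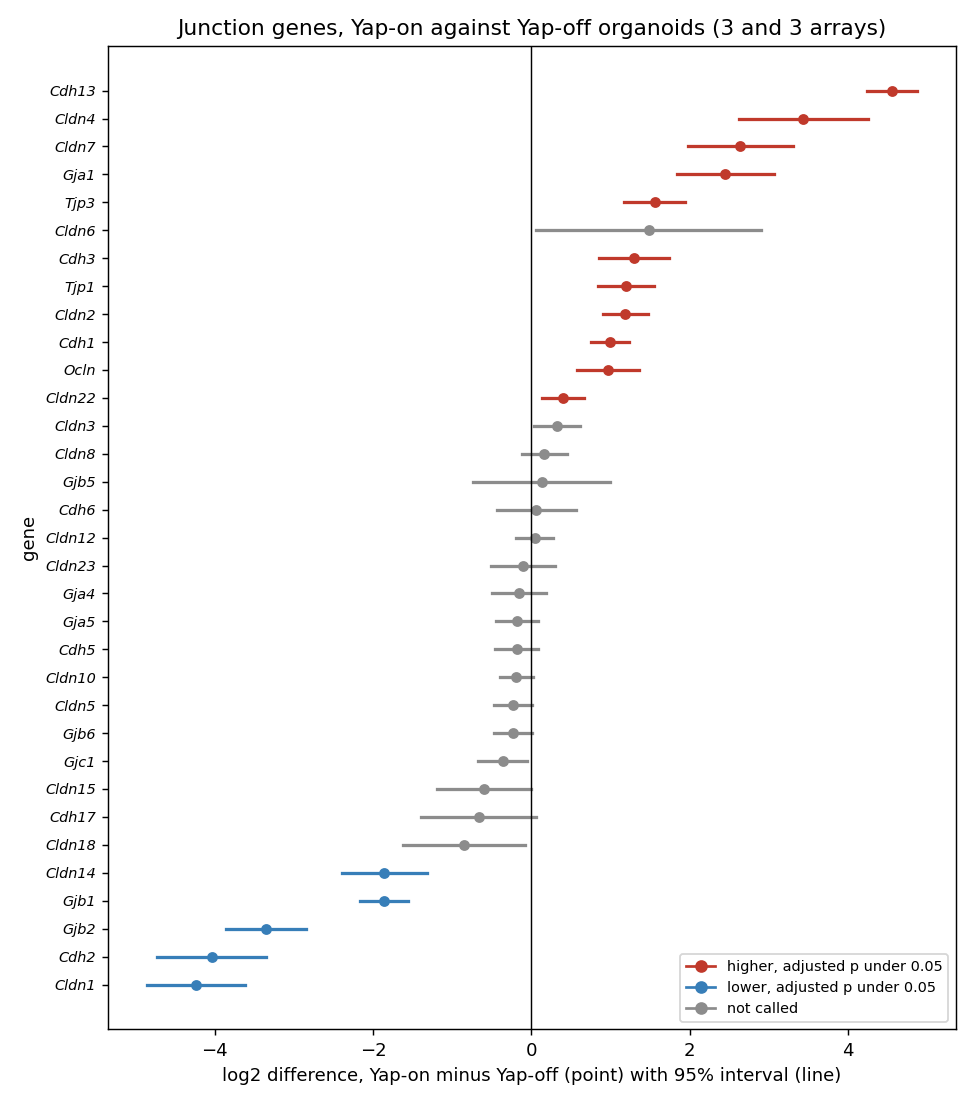
Log2 difference between Yap-on and Yap-off organoids (horizontal axis; points) with its 95% interval (lines) for 33 junction genes (vertical axis), 3 arrays a group. Red genes were called higher and blue genes lower, from Cdh13 at 4.56 to Cldn1 at -4.24, and grey genes were not called.

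Of the vascular junction genes, Cdh5, Gja4 and Cldn5 were highest in the 3 libraries with endothelial markers and low in the Yap series. Cdh5, VE-cadherin, which holds endothelial cells together, read 10.56, 10.67 and 10.56 in the libraries named hepatocyte 2 and wild-type organoid 1 and 3, and 3.08 to 3.66 in the other 9. Gja4, an arterial connexin, read 5.84, 7.65 and 7.06 there and 2.50 to 3.10 elsewhere. Cldn5, the claudin of endothelial barriers, read 4.90, 7.42 and 5.80, and 3.38 to 4.23 elsewhere. In the library labelled hepatocyte 2 Cdh5 was thus as high as in the others, whereas Gja4 and Cldn5 were lower, as was its endothelial sum. Gja5 and Gjc1, vascular connexins, stayed below the median of every array.

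Gja1, the most widespread connexin, was the other vascular member besides Cdh13 to rise with Yap on. It read 4.43, 4.04 and 3.54 in the Yap-off and 6.38, 6.16 and 6.81 in the Yap-on libraries (difference 2.45, SE 0.26, adjusted p = 0.00064). It was higher still in wild-type organoid 1 and 3, at 8.32 and 7.23. The endothelial sum in the Yap-on libraries (73.0 to 87.7) was close to that in the Yap-off libraries (68.5 to 74.7). Of the 7 markers in it, only Ptprb was above the array median with Yap on. Ptprb read 5.28, 4.55 and 4.84 there, against 4.03, 4.50 and 3.87 with Yap off. Pecam1 read 2.67, 2.68 and 2.91 with Yap on, and Cdh5, not in that sum, 3.17, 3.30 and 3.08. The part of endothelial cells in the rise of Gja1 and Cdh13 was not tested. Of the 7 vascular members 2 rose and 5 were not called, with a median of -0.18, beside 19.1% higher over all genes. Across connexins, the Yap-on libraries thus had less Gjb1 and Gjb2 and more Gja1 than the Yap-off libraries.

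The 37 junction genes not named for their values lay between 2.26 and 5.48 on all arrays. Their differences between Yap-on and Yap-off organoids ran from -0.49 to 0.49. All genes called in this comparison are among those named, so that none of the 37 could be.

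Partners of these genes were also measured. In a list of 21 tight junction partners 12 rose and 2 fell (median 0.62), among 15 adherens junction partners 8 rose and 2 fell (0.82), and among 13 desmosome genes 7 rose (1.09) and 6 were not called, beside 19.1% higher and 12% lower over all genes. Ildr1, a protein of the contacts where 3 cells meet, rose from 3.23, 3.35 and 3.63 to 6.70, 7.07 and 6.88 (3.48, SE 0.15, adjusted p = 7.8e-06) and was at most 3.68 in any other library. Its relative Lsr, of the same contacts, fell from 10.20, 10.08 and 10.09 to 9.40, 9.52 and 9.65 (-0.60, adjusted p = 0.0055). Patj, a scaffold of the apical Crumbs complex, and Jam2, a junctional adhesion molecule also found on endothelium, rose by 1.97 and 1.89, and Mpdz, a paralogue of Patj, fell by 0.58.

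Of the adherens junction list, Lima1, Plekha7 and Nectin2 rose most, by 1.47, 1.19 and 1.17. Lima1 links cadherin complexes to actin, Plekha7 binds the catenin Ctnnd1, and nectins are adhesion molecules of the same junction. Nectin1 fell from 6.22, 6.14 and 6.29 to 3.73, 3.96 and 4.35 (-2.20, SE 0.17, adjusted p = 0.00013), and Nectin3 fell by 0.75. The catenins Ctnna1, Ctnnb1 and Ctnnd1, which tie cadherins to actin and were picked after their values were seen, rose by 1.08, 0.90 and 1.01. The other catenins of the list, Ctnna2 and Ctnnd2, stayed below the median of every array. In the desmosome list the plaque protein desmoplakin (Dsp) rose by 1.98, from 7.81, 7.29 and 7.63 to 9.62, 9.74 and 9.30, and the plakophilins Pkp1 and Pkp3 by 1.77 and 1.70. Panx1, a channel related in form to connexins, fell by 0.52 (adjusted p = 0.042 by limma), and the other 2 pannexins were not called.

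**Figure D5:**
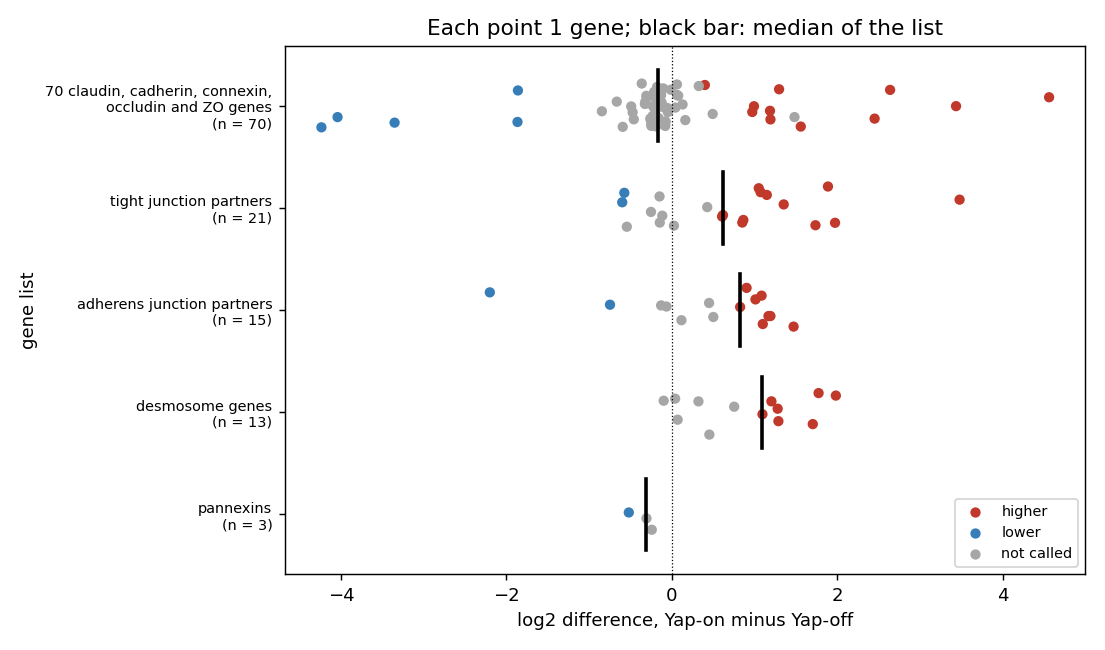
Log2 difference between Yap-on and Yap-off organoids (horizontal axis) for each gene (points) of 5 lists (vertical axis), with the list median as a black bar; red points were called higher, blue lower and grey not called. The 70 junction genes centre at -0.17 with members far on either side, whereas the partner lists of tight junctions, adherens junctions and desmosomes centre at 0.62, 0.82 and 1.09.

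The Yap groups also differed in Xist, the RNA that silences one X chromosome in female cells, which read 9.20, 8.49 and 8.98 in the Yap-off and 3.14, 3.15 and 3.20 in the Yap-on libraries. Every difference between these groups therefore runs along with a difference in a sex-linked gene, and the 2 cannot be told apart. Wild-type organoids read 3.30, 3.14 and 3.26, so that the same holds for Yap-off against wild-type organoids, and the hepatocyte-labelled libraries were split, at 8.82, 3.00 and 9.0. Between the Yap groups, the rise of Cldn4, Cldn7 and Tjp3 also ran along with the biliary markers. The fall of Cldn1, Gjb1 and Gjb2 ran along with the hepatocyte markers. Over all libraries, genes differed in this. Hepatocyte 1 and 3 and wild-type organoid 2 had higher biliary sums than the Yap-off libraries. Their Cldn7 (5.47, 5.93 and 6.51) and Tjp3 (4.86, 4.83 and 4.92) lay below every Yap-off library, while Cldn4 overlapped. Gjb1 in the Yap-on libraries lay within the hepatocyte-labelled range, where hepatocyte sums were 8266 to 13727. Gjb2 and Cldn1 in the hepatocyte-labelled and wild-type libraries read 5.71 to 8.37 and 3.45 to 5.72, mostly between the Yap groups. The hepatocyte sums of these libraries also lay between those of the Yap groups. The part of these markers in the differences was not tested.

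Set against all other libraries, the Yap-on and Yap-off organoids each had junction genes of their own level. The 3 Yap-on libraries lay above all other 9 for 10 of the 70 genes (14.3%, beside 7.58% of all genes): Cdh1, Cdh3, Cdh13, Cldn2, Cldn3, Cldn4, Cldn7, Ocln, Tjp1 and Tjp3. They lay below all others for 5 (7.14%, beside 5.79%), of which Gjb2 was expressed and Cdh7, Cdh23, Gja10 and Gjc1 were below the median of every array. The 3 Yap-off libraries lay above all other 9 for 4 genes, Cldn1, Cldn14, Cldn18 and Gjb1 (5.71%, beside 3.48%). These counts do not depend on how the other 6 libraries are labelled.

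The comparisons with the labelled groups ask how organoids with a history of Yap differ from cells without it, and they share control libraries. The libraries labelled hepatocyte came from sorted cells, for which no culture is given. Against them, the history of Yap and the 2 weeks of culture cannot be told apart. These comparisons were fitted with limma on all 12 arrays. Against the wild-type organoids, 7 of the 70 genes were called in Yap-on organoids (beside 5.47% of all genes), and all 7 were higher (4.02% of all genes): Cldn7 by 4.99, Cldn4 by 4.55, Cldn3 by 3.42, Cdh13 by 2.72, Ocln by 2.64, Tjp3 by 2.30 and Cdh3 by 1.66. In Yap-off organoids 6 were called against the same group (beside 2.61% of all genes), again all higher (1.42% of all genes): Cldn1 by 3.35, Cldn3 by 3.09, Gjb1 by 2.63, Gjb2 by 2.58, Cldn7 by 2.35 and Cldn14 by 2.03. These 6 calls all ended in a fit on only the 6 arrays compared, and 3 genes were called with the replicate number as a block. The wild-type mean joins a library with high biliary markers to 2 with endothelial markers, and the part of this in the counts was not tested. Without the library labelled wild-type organoid 2 they were 21 (30.2% of all genes) and 21 (19.4% of all genes). For Yap-off organoids the count was 3 without wild-type organoid 1 and 2 without wild-type organoid 3, Yap-off 2 or Yap-off 3. With hepatocyte 2 and wild-type organoid 2 both left out, 28 genes were called for Yap-on (17 higher, 11 lower, 41.0% of all genes) and 22 for Yap-off organoids (17 higher, 5 lower, 32.3% of all genes). As the share over all genes moved too, changes in these counts are not read as results about junction genes.

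Against the libraries labelled hepatocyte, 7 genes were called in Yap-on organoids (6.19% of all genes), 5 higher (4.26% of all genes) and 2 lower (1.93% of all genes). Cldn7 (4.88), Cdh13 (4.54), Cldn4 (4.30), Tjp3 (2.10) and Cdh3 (1.41) were higher, and Gjb2 (-2.31) and Cldn1 (-1.80) lower. In Yap-off organoids 3 were called (1.90% of all genes), all higher (0.878% of all genes): Gjb1 by 2.58, Cldn1 by 2.43 and Cldn14 by 1.49. On only the 6 arrays compared 0 were called, and with the replicate number as a block 1. This count was 1 without Yap-off 2, hepatocyte 1 or hepatocyte 3, 2 without Yap-off 1 or hepatocyte 2 and 0 without Yap-off 3. With the same 2 libraries left out the counts were 15 (21.6% of all genes) and 6 (14.0% of all genes). Between wild-type organoids and the libraries labelled hepatocyte limma called 0 of the 70 genes (4 at an unadjusted p under 0.05), beside 0.0502% of all genes. Without wild-type organoid 2 it called 4, without hepatocyte 2 it called 3, and without both 18 (30.7% of all genes). The share over all genes thus also moved with the libraries left out. Changes in these counts, some given without that share, are not read as results about junction genes.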

How the data were processed

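RNA was amplified and biotin-labelled with the Nugen Pico WT kit, per the labels' protocols, and measured on 12 arrays. Deposited were intensities, made by the authors with RMA (a method that usually joins background correction, quantile normalization and a probe summary), per the submitters' processing notes. Their range is that of linear values, and log2 was taken here. The number of arrays limits the precision. Detection calls, scan dates and software versions were not used here.

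Of 34760 array rows, 21640 named exactly 1 gene in the platform annotation, and the row with the highest mean was kept for each of 19937 genes. All 70 junction genes matched RefSeq by gene ID with the same symbol. Groups came from the labels alone. limma 3.58.1 (lmFit and eBayes, R 4.3.3) was fitted over all genes, called at an adjusted p under 0.05: for Yap-on against Yap-off on their 6 arrays (4 residual and 2.86 prior degrees of freedom), for the other 5 comparisons on all 12 (8 and 1.76). All p-values named as adjusted are limma's with Benjamini-Hochberg adjustment over 19937 genes. With 3 arrays against 3 no permutation test was used. The fit was tested on simulated data. Figures used matplotlib 3.10.9.

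The junction genes, lists and tests were chosen with earlier results of these data known. The text names genes called without overlap (up to 12 each way), all measured members of the hepatocyte, ductal and vascular lists, genes above log2 8 on any array, and up to 3 called partners each way in each partner list. Beyond this rule, catenins of the adherens junction list were added after their values were seen. The hepatocyte, biliary, endothelial and other marker lists were fixed with the junction lists. Summed intensities of the others were, over all 12 libraries, 120 to 14784 for 6 macrophage, 65.7 to 367 for 6 stellate and fibroblast, 30.1 to 2131 for 4 lymphocyte and 24.4 to 399 for 2 red cell markers.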

Additional observations from a re-analysis of the deposited data

How the results depend on the processing

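The count of junction genes called between Yap-on and Yap-off organoids was 16 under renewed quantile normalization, median centring, the mean of a gene's rows, omission of the 30% of genes with the lowest mean, and the replicate number as a block. The shares of all genes called were 25.3%, 30.2%, 31.2%, 41.8% and 27.1%, in that order. The omission left 36 of the 70 genes. The count was 9 on all 12 arrays (11.5% of all genes). With an intensity trend and robust eBayes it was 25, with 10 higher and 15 lower (35.6% of all genes). Without 1 library in turn it lay between 15 and 26. The shares of all genes were 18.9% without Yap-on 1, which gave 15, and 39.4% without Yap-off 1, which gave 26. Of the 16 genes, 15 stayed called under the block and with the trend, and Cldn22 did not. No called difference among the named genes changed sign in these alternatives, but the differences of Cdh6, Cldn12, Cldn23 and Gjb5, which were not called, did in at least 1 of them. Some list medians between Yap-on and Yap-off organoids moved too. Under renewed quantile normalization they were 0.48 for tight and 0.59 for adherens junction partners and 0.92 for desmosome genes. The vascular list and the neural and mesenchymal cadherins were then at -0.007 and -0.01, and the hepatocyte list at -1.04. Without the 30% of genes with the lowest mean, the ductal median was 0.66 over 10 genes. Leaving out 1 library in turn gave 5 to 21 genes for Yap-on and 2 to 21 for Yap-off against wild-type organoids, 0 to 4 for wild-type organoids against hepatocytes, and 0 to 2 for Yap-off and 5 to 8 for Yap-on against hepatocytes. On only the 6 arrays compared, the Yap-off counts against wild-type organoids and hepatocytes were 0 and 0. Without hepatocyte 2 and wild-type organoid 2 together, the counts were 28 (Yap-on) and 22 (Yap-off) against wild-type organoids, 18 between the labelled groups, and 6 (Yap-off) and 15 (Yap-on) against hepatocytes. Deviations of same-numbered Yap-on and Yap-off libraries from their group means correlated at 0.07, 0.03 and -0.06 across genes, which are not independent. For wild-type organoids and hepatocytes the correlations were -0.51, -0.71 and -0.66. With 3 arrays to a mean, such values cannot decide whether the replicate numbers pair the samples. With the replicate number as a block, the Yap-off counts were 3 against wild-type organoids and 1 against hepatocytes. The cause of these changes was not tested, and low intensities near the array background limit the size of differences on the lower side.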
